A study of Drosophila melanogaster with 3 samples.

Results

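Head-to-head promoters are those at which a gene read to the left and a gene read to the right start close to each other, and the peaks of a tagged Drosophila protein at such promoters were described here. A peak was counted when its summit lay within 500 bp of the transcription start of a protein-coding gene in a head-to-head pair, which was a minus-strand start and, 0 to 1000 bp to its right, a plus-strand start of a different protein-coding gene. This held for 2338 of the 5558 peaks in the authors' thresholded list, or 42.1%. They made up 51.6% of the 4532 peaks with a summit within 500 bp of any protein-coding start. The other peaks were 1265 at lone promoters of genes with a single annotated start, 929 at lone promoters of genes with several starts, and 1026 away from promoters.

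The protein was CG4617 carrying GFP at its C-terminal end, expressed from a stably inserted transgene in all of the flies, and chromatin was pulled down with an antibody to GFP. Whole embryos of mixed sex, collected over 0 to 24 h, were used, so every embryonic tissue and stage is averaged in each value. There were 3 biological replicates in 1 group, and no untagged or untreated group is analysed here. Chromatin was sonicated to fragments of 200 to 800 bp, which limits how finely a summit between a pair of close starts can be placed.

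In the compact fly genome, many genes lie back to back and share the stretch of DNA between their starts. Genes used in every cell, such as those for ribosomal proteins, mitochondrial proteins and parts of the transcription machinery, are often placed this way. Their promoters commonly carry short core elements, among them the DNA replication-related element (DRE), read by the factor Dref, and motif 1, read by M1BP, rather than a TATA box.

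The stretches between the starts are shown for 11 of the 20 members with the highest signal, which are all those with at most 300 bp between the starts that may be printed here, because these show what lies under or beside the summit where the starts leave room for it and where they leave almost none. Each runs on the plus strand from the base after the minus-strand start to the base before the plus-strand start, in dm6 coordinates, from the RefSeq Release 6 sequence, and capitals mark matches to TATCGATA (the DRE), CGATA (its core), GGTCACAC (motif 1), CAGCTG (an E-box), GGTATTTT (motif 6), CATCNCT (motif 7) or GGCAACG (motif 8) on either strand. TATAAA and GAGAG, which are counted further below, were not marked. In the first 5 pairs the starts lay 224 to 288 bp apart and the summit lay inside the stretch.
Art3/mRpS10: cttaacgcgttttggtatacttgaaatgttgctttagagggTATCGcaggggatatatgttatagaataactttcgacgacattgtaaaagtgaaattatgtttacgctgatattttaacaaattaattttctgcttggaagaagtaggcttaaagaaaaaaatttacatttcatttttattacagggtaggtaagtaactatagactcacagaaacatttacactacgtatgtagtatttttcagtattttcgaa
Tcs5/CHMP2B: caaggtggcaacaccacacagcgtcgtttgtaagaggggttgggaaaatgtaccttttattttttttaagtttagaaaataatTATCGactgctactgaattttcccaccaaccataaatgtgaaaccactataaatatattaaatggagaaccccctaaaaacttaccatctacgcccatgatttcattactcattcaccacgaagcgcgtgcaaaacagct
Atat/Shc: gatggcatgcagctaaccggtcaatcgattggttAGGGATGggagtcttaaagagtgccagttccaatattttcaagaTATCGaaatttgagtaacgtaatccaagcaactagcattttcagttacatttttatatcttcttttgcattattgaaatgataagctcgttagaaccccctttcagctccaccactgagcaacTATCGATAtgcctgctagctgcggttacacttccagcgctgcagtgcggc
Lon/PIG-F: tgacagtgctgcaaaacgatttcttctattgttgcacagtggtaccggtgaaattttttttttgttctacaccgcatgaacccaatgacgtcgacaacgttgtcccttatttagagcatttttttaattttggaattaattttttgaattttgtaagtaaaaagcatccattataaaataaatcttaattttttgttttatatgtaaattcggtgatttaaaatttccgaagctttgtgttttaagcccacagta
Mkk4/SLIRP2: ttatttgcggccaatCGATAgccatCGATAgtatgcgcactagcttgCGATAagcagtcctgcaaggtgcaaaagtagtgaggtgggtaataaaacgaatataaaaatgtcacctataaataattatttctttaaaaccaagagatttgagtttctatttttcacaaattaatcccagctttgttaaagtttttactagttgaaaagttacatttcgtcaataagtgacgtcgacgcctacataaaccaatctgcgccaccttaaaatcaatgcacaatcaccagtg
The stretch of Art3 and mRpS10 is chr3R:15229409-15229664, that of Tcs5 and CHMP2B is chr3L:5139396-5139618, that of Atat and Shc is chr3L:9426759-9427009, that of Lon and PIG-F is chr3L:19612200-19612454 and that of Mkk4 and SLIRP2 is chr3R:8650797-8651083. The summit fell at base 112 of the 256 of Art3/mRpS10, base 111 of the 223 of Tcs5/CHMP2B, base 135 of the 251 of Atat/Shc, base 96 of the 255 of Lon/PIG-F and base 138 of the 287 of Mkk4/SLIRP2. The stretch of Atat/Shc holds a DRE, that of Mkk4/SLIRP2 holds CGATA 3 times, and that of Lon/PIG-F holds none of the marked motifs.

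In the other 6 pairs the starts were 24 to 105 bp apart.
PDCD-5/MED10: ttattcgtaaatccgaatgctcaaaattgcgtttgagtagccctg
Fbw5/CG9147: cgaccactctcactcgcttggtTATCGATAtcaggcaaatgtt
Ripalpha/RpL7: cccactccgcggccaGTGTGACCgtttgg
Chro/Ssl1: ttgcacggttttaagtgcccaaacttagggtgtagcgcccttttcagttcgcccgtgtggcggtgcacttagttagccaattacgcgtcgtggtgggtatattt
mRpL23/CG9004: gttgtccaacacttgttttaaac
CG8372/CG8360: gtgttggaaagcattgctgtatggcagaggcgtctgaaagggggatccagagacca
These are chr3L:16232039-16232083, chr2L:6065954-6065996, chr2L:10200975-10201003, chr3L:22878985-22879088, chr3L:2373705-2373727 and chr2L:8212903-8212958, in the order printed. PDCD-5/MED10 had its summit at base 39 of 45 and no match. Fbw5/CG9147 carries a DRE, and Ripalpha/RpL7 a motif 1. Their summits lay 98 bp and 28 bp downstream of the plus-strand start, inside CG9147 and RpL7. The last 3 hold no match, and their summits lay inside Chro, mRpL23 and CG8360. In all, 6 of the 11 stretches hold a match to a marked motif and 5 hold none.

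The annotation held 2667 head-to-head gene pairs, built from 5052 of 13968 protein-coding genes (36.2%). At least 1 peak was found at 1927 pairs, and none at 740. The share with a peak was 72.3% (95% Wilson interval 70.5 to 73.9%, which covers counting error only). For the 5558 strongest regions of each replicate the share was 73.1%, 71.1% and 65.8% in replicates 1, 2 and 3, a mean of 70.0% ± 3.75 (SD, n = 3). Pairs can share a start, so they are not independent. The extreme is mod(mdg4), a locus annotated as many separate genes on both strands, where 3 peaks were assigned to the 37 pairs. With pairs that share a start joined, 1760 of 2459 loci (71.6%) had a peak.

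Counted by gene, 3353 of the 5052 genes in pairs had a summit within 500 bp of a start of their own (66.4%), against 1826 of the 8916 other protein-coding genes (20.5%). Over all 13968 genes the share was 37.1%. The gene shares in replicates 1, 2 and 3 were 67.2%, 65.0% and 61.3% for genes in pairs, against 21.0%, 20.1% and 18.1% for the others. The share was the higher for genes in pairs in every replicate, and the ranges did not overlap. A single summit can count for both genes of a pair. At 1448 of the 1927 pairs with a peak the same summit lay within 500 bp of a start of each gene. Both genes had a summit that near, the same or not, at 1590 pairs, and only 1 gene had one at 337.

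A set of 42 pairs had to be read apart. These are pairs of histone genes, 22 of His4 with His3 and 20 of His2B with His2A, all on arm 2L, where the histone genes are repeated in near-identical copies. Their 42 stretches between the starts comprise only 11 different sequences. None of them had a peak, and none had a region in the pooled list or in any replicate list. The labels and file headers do not say how reads that align to several places were treated, so no peak at these pairs cannot be read as no binding. Without them 73.4% of 2625 pairs had a peak (interval 71.7 to 75.1%).

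Pairs with a peak were spaced more closely than pairs without. The median distance between the starts was 283 bp (quartiles 136 and 438 bp) at the 1927 pairs with a peak, and 398 bp (203 and 668 bp) at the 740 without. The difference was -115 bp, and -154 bp without the histone pairs, where the pairs without a peak had a median of 437 bp. In replicates 1, 2 and 3 the difference without histone pairs was -155.5, -134 and -82.5 bp, a mean of -124 ± 37.5 bp (SD, n = 3). All 3 replicates gave a shorter distance at pairs with a peak, and an exact two-sided sign-flip test over the replicates gave p = 0.25, the smallest value that 3 replicates allow.

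The share with a peak did not fall evenly with distance. Histone pairs left out, it was 83.2% of 173 pairs spaced 0 to 49 bp, 86.5% of 251 pairs at 50 to 99 bp and 82.5% of 189 pairs at 100 to 149 bp. It was 65.6% of 125 pairs at 150 to 199 bp (interval 56.9 to 73.4%), and again 83.1% of 243 pairs at 200 to 249 bp. The lower share at 150 to 199 bp was seen in each replicate, with 71.2%, 65.6% and 52.8% in replicates 1, 2 and 3, against 82.7%, 81.5% and 78.6% at 200 to 249 bp. With the histone pairs included it would read 57.3% of 143 pairs. From 250 to 499 bp the share stayed between 77.0% and 79.4%, and it was 58.0% of 424 pairs at 500 to 749 bp and 49.0% of 251 pairs at 750 to 1000 bp. At the edge of the rule, 20 of 48 pairs spaced 951 to 1000 bp had a peak, beside 25 of 44 pairs spaced 1001 to 1050 bp.

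**Figure D1:**
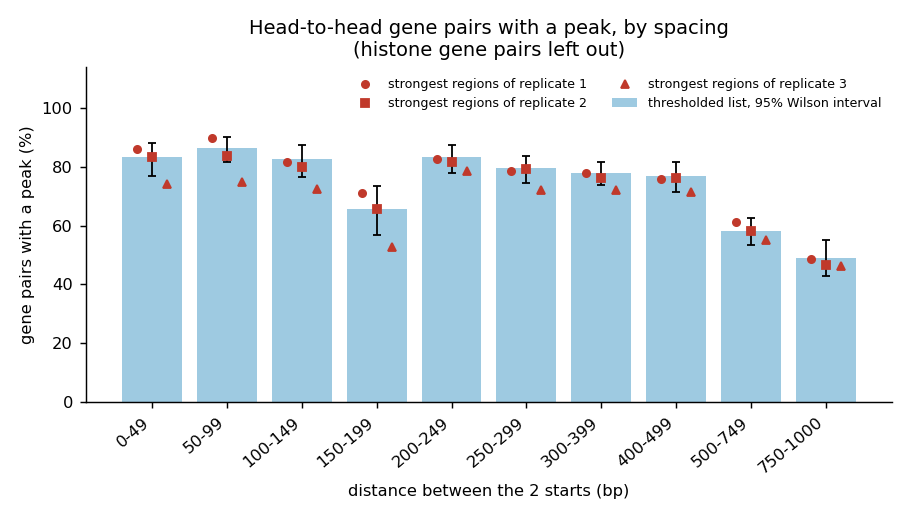
Share of head-to-head gene pairs with a peak (vertical axis, percent) by the distance between their starts (horizontal axis, bp), without the 42 histone gene pairs. Bars are the thresholded list with 95% Wilson intervals and points are the 5558 strongest regions of each replicate. The share is 65.6% at 150 to 199 bp, between 82.5% and 83.1% in the neighbouring classes, and 49.0% in the widest class.

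Some peaks came as close couples, and this bears on any count of summits. In the thresholded list 620 neighbouring summits lay at most 250 bp apart, none closer than 199 bp, and only 61 lay 251 to 500 bp apart. In 611 of the 620 couples the peak to the right on the chromosome was the weaker, and in 9 the left-hand one. The weaker peak of a couple is called a companion below. The regions overlapped in 593 couples, and in 37 both summits were listed for the same region. Companions were 363 of the 2338 head-to-head peaks (15.5%), beside 11.2% of all 5558 peaks, 10.2% of lone single-start peaks and 1.85% of peaks away from promoters. In the 365 couples that involve a head-to-head peak the weaker signal was a median 0.561 of the stronger (quartiles 0.427 and 0.677). The strongest regions of replicates 1, 2 and 3 held 825, 595 and 379 such couples, with the right-hand peak weaker in 815, 586 and 368. Results on position are therefore given with and without companions.

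**Figure D2:**
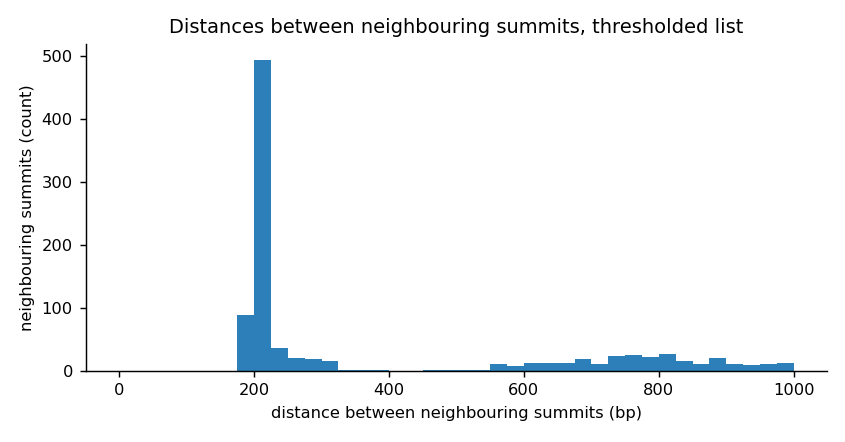
Number of neighbouring summits (vertical axis) by their distance (horizontal axis, classes of 25 bp, distances to 1000 bp shown) in the thresholded list. No distance is under 199 bp, and 620 lie between 199 and 250 bp.

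Companions also made most double peaks. Of the pairs with a peak, 1323 had 1 peak, 568 had 2 and 36 had 3. Without companions, 242 pairs kept 2 or more in place of 604, with a median spacing of 460 bp. At 191 of the 242 the minus-strand start and the plus-strand start each had a different nearest summit. No pair lost its only peak.

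The summit lay between the starts in 927 of the 2338 members (39.6%, interval 37.7 to 41.6%). Without companions this was 826 of 1975 (41.8%). By the layout of a pair, any other summit is downstream of a start. Of these, 558 lay beyond the minus-strand start and 591 beyond the plus-strand start, at a median of 93 bp into the gene (quartiles 36 and 163 bp). Most summits lay close to a start. The median distance to the nearer start of the pair was 59 bp without companions, and 68.8% lay within 100 bp. With companions 55.6% of summits were right of the midpoint between the starts, and without them 50.6%. At the edge of the window, 9 members lay 451 to 500 bp from the nearest start of a pair, with a median signal of 245, beside 4 peaks at 501 to 550 bp with a median of 229.

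Where the summit lay depended on the distance between the starts. Without companions, it lay between the starts in 32.7% of 346 members spaced 0 to 99 bp, 48.6% of 220 at 100 to 199 bp, 62.6% of 433 at 200 to 299 bp, 40.5% of 536 at 300 to 499 bp and 26.8% of 440 at 500 to 1000 bp. How far the length of the stretch sets this share was not tested. At the widest pairs 6 of the 440 summits lay within 50 bp of the midpoint, and 325 lay within 150 bp of one start. Of the 369 pairs spaced 500 to 1000 bp that had a peak, 266 had a single one once companions were left out.

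Stronger peaks sat between the starts more often. With companions left out and members cut into quartiles of signal, strongest first, 58.5%, 41.5%, 34.3% and 33.0% of 494, 494, 493 and 494 members had the summit between the starts. In the top quartile the share reached 86.1% (118 of 137, interval 79.4 to 90.9%) at spacings of 200 to 299 bp, with a median distance of 49 bp from the midpoint. It was 38.2% (58 of 152) at 0 to 99 bp and 73.4% (47 of 64) at 100 to 199 bp. At 300 to 499 bp it was 53.6% (45 of 84), and at 500 to 1000 bp 36.8% (21 of 57). Spacing and region width went along with signal. The median spacing was 228.5, 277, 329 and 383.5 bp from the strongest quartile to the weakest. Of the 494 strongest, 85.0% had a region narrower than the fixed width of 440 bp that most regions share, and of the weakest 494, 4.05%. Summits of narrower regions lay between the starts in 57.9% of 710 members, and those of fixed-width regions, where the summit is always the middle of the region, in 32.6% of 1238. The shares by signal quartile are those of the thresholded list only and are not given for each replicate. The parts of spacing and region width in the difference between signal quartiles were not tested.

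**Figure D3:**
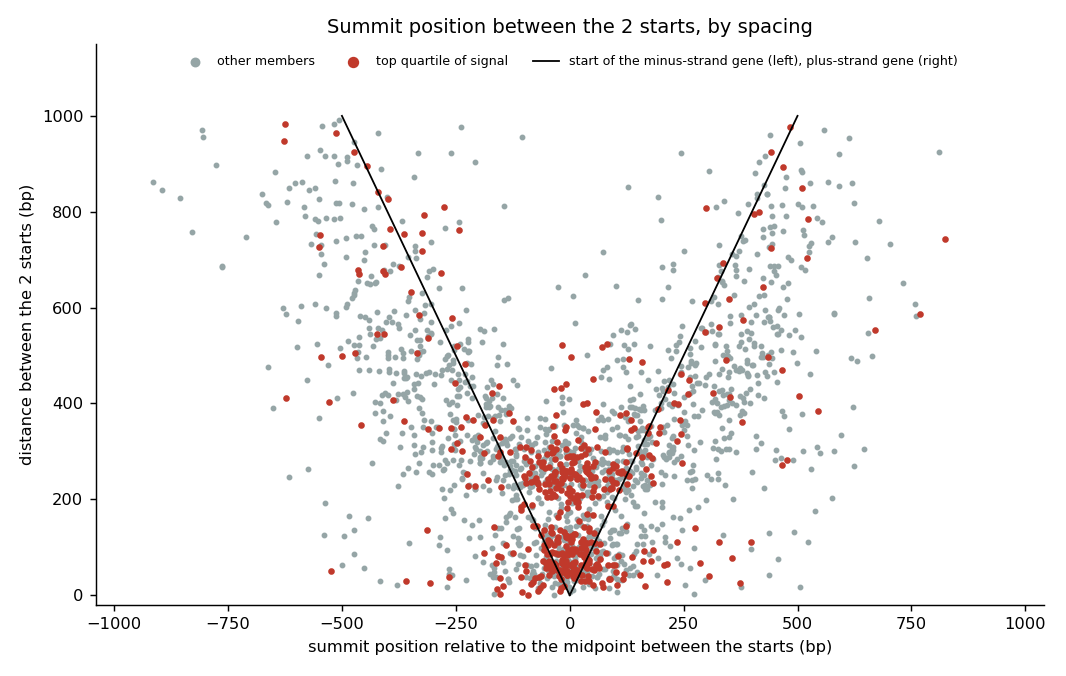
Each point is a member without companions, placed by its summit relative to the midpoint between the starts (horizontal axis, bp) and the distance between the starts (vertical axis, bp). The black lines mark the starts, and red points are the top quartile of signal. Red points fill the space between the lines at 200 to 299 bp, where 118 of 137 lie between the starts, while at 500 to 1000 bp points follow one or the other line and 6 of 440 lie within 50 bp of the midpoint.

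The replicates did not agree on the share of summits between the starts. It was 38.3%, 33.1% and 53.5% in replicates 1, 2 and 3 (mean 41.6% ± 10.6, SD, n = 3). The replicates lay farthest apart at 500 to 1000 bp, with 20.5%, 19.9% and 54.7% without companions, while at 200 to 299 bp all 3 were at or above 55.0%. The lists also differed in content, since 30.6% of the strongest regions of replicate 3 were away from promoters, beside 13.3% and 19.2% in replicates 1 and 2. At the 1722 members, companions left out, whose summit lay in a region of all 3 replicates, the summits of replicates 1, 2 and 3 were between the starts in 43.3%, 37.5% and 50.7%. Against the thresholded summit they were shifted toward the partner gene's start by a median of -1, -3 and 11 bp. In all 3 replicates the share was higher at 200 to 299 bp than at 0 to 99 bp (37.0%, 26.1% and 25.2%), while the low share at the widest pairs was found in replicates 1 and 2 and not in replicate 3.

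Signal at head-to-head peaks was close to that at lone promoters. The median was 230 at head-to-head peaks (quartiles 173 and 325), against 225 at lone single-start promoters, 224 at lone promoters of genes with several starts and 185 away from promoters. The signal is a value of the authors, in a unit the sources leave unnamed, so it was compared within a list only. Ratios, sums and log2 differences of it are given on that scale as deposited. On the log2 scale head-to-head peaks minus lone single-start peaks gave 0.03 in the thresholded list. In replicates 1, 2 and 3 it gave 0.00, 0.06 and 0.15, a mean of 0.07 ± 0.07 (SD, n = 3), so the spread was as large as the difference (exact two-sided sign-flip p = 0.25, the smallest possible). Head-to-head peaks made up 48 of the 100 peaks and 496 of the 1000 peaks with the highest signal, beside 42.1% of the whole list.

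Within the head-to-head peaks signal was higher at close pairs. The 1223 members spaced under 300 bp had a median signal of 258, and the 1115 spaced 300 bp or more 209, a log2 difference of 0.30. It was 0.30, 0.26 and 0.32 in replicates 1, 2 and 3 (mean 0.29 ± 0.03, SD, n = 3), with the exact two-sided sign-flip test again at its smallest value of 0.25. Without companions the medians from the closest class to the widest were 315 at 0 to 99 bp, 271 at 100 to 199 bp, 270 at 200 to 299 bp, 218 at 300 to 499 bp and 215 at 500 to 1000 bp.

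The strongest member stood between Ugalt, a UDP-galactose transporter of the Golgi, and eIF2Bbeta, a subunit of the exchange factor that recharges translation factor eIF2, on the X chromosome. It had a signal of 1816, rank 2 of all peaks, and 538, 791 and 509 in replicates 1, 2 and 3, at ranks 2, 2 and 3. Its starts are 719 bp apart and the summit lay 35 bp from the Ugalt start and 684 bp from that of eIF2Bbeta, so eIF2Bbeta counts as a gene without a peak of its own.

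Art3, an arginine methyltransferase, and mRpS10, a protein of the small subunit of the mitochondrial ribosome, share the next peak. Its signal was 1450, and 374, 568 and 500 in replicates 1, 2 and 3. It lay 16.5 bp from the midpoint of the 257 bp between the starts. Chro, a chromodomain protein of the open interbands of polytene chromosomes, and Ssl1, a subunit of TFIIH, had 1333 in the thresholded list and 405, 470 and 454 in the replicates. There the summit was 87 bp inside Chro, with 105 bp between the starts. All 3 peaks were among the 15 strongest regions of every replicate.

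The mitochondrial ribosome gave 3 more of the 20 strongest members, through mRpL41, mRpS23 and mRpL23. mRpL41/CG8079 on arm 2R had a signal of 1255, 762 bp between the starts and a summit 138 bp from mRpL41. mRpS23/CenG1A had 1180 and a summit 116 bp from CenG1A, which encodes an Arf GTPase-activating protein. mRpL23/CG9004 had 1015, only 24 bp between the starts and a summit 73 bp inside mRpL23.

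Other strong members serve varied roles. PNPase/Gprk2 (1252) joins the polynucleotide phosphorylase of mitochondria with a kinase of G protein-coupled receptors, and its summit lay 82 bp inside PNPase. Tcs5/CHMP2B (1244) joins a tRNA modification kinase with an ESCRT-III subunit, and its summit lay 1 bp from the midpoint of the 224 bp. Atat/Shc (1062), an alpha-tubulin acetyltransferase and an adaptor of receptor tyrosine kinases, had its summit 9 bp from the midpoint, and Mkk4/SLIRP2 (858), a kinase of the JNK pathway and a mitochondrial RNA-binding protein, 6 bp from it. The others among the 20 were tank/CG12194 (1125), Pex11ab/CG8320 (1081), CG5611/Mtl (1032), Fbw5/CG9147 (1012), PDCD-5/MED10 (998), Pdrg1/Pal1 (991), Lon/PIG-F (934), Ripalpha/RpL7 (926), CG5757/CG5098 (887) and CG8372/CG8360 (887), each with its signal.

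Of these 20 members, 11 had the summit between the starts, 7 had starts under 100 bp apart and none was a companion. Ranks within the replicates were close for most, and 16 of the 20 were among the 100 strongest regions of all 3 replicates. Ripalpha/RpL7, which holds the start of the gene for ribosomal protein L7, varied in rank, with signals of 483, 285 and 173 at ranks 5, 71 and 121 in replicates 1, 2 and 3. CG5757/CG5098 ranked 200, 34 and 29.

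**Figure D4:**
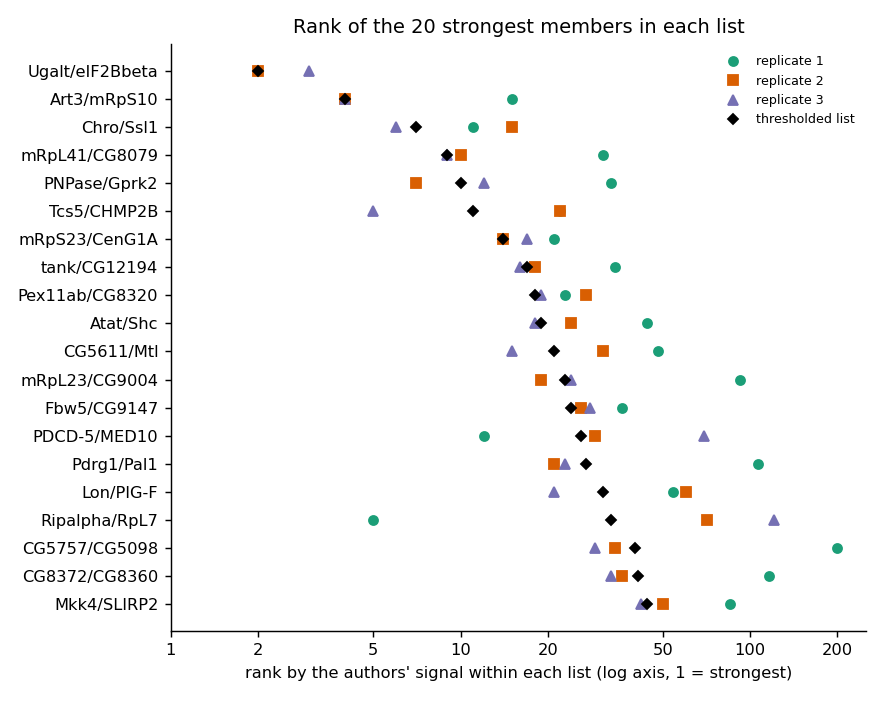
Rank by signal within each list (horizontal axis, log scale, 1 is the strongest) of the 20 members with the highest signal (rows), in the thresholded list (diamonds) and in replicates 1, 2 and 3. Ugalt/eIF2Bbeta ranks 2, 2 and 3 in the replicates, and Ripalpha/RpL7 ranks 5, 71 and 121.

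Spacing at its extremes gave no single form. The narrowest pairs in the top quartile were Diap2/bug with both starts on the same base, dpa/didum 2 bp apart and CG3032/CG4593 6 bp apart. Diap2 encodes an inhibitor of apoptosis, dpa the replication helicase subunit Mcm4 and didum myosin V. Their summits lay 92, 153 and 101 bp inside the minus-strand gene, with signals of 494, 408 and 370. The widest were Smg5/Ance at 984 bp, Hsp68/SMC1 at 977 bp and Bet3/Srg3 at 965 bp. The summits lay 132 bp inside Smg5, a nonsense-mediated decay gene, 4 bp from the start of SMC1, a cohesin subunit, and 30 bp inside Bet3, a subunit of the TRAPP vesicle tethering complex. In all 3 widest pairs the far start was over 900 bp away, so these summits were not within 500 bp of the starts of Ance, Hsp68 and Srg3.

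Among pairs with 2 or more peaks, the 5 with the highest summed signal were Chro/Ssl1 (1483), mRpL41/CG8079 (1425), Lon/PIG-F (1270), CG5611/Mtl (1246) and Hrd3/PTPMT1 (1211). In the last 3 the weaker peak was a companion. At mRpL41/CG8079 the second peak, of signal 171, lay 132 bp inside CG8079, and at Chro/Ssl1 the second, of 150, lay 37 bp inside Chro downstream of another of its starts. Hrd3/PTPMT1 was unlike the rest. Its peaks, of 661 and 550, lay 498 and 288 bp inside Hrd3, whose product works in the degradation of proteins of the endoplasmic reticulum.

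CG4617, the tagged gene, is itself in a pair, with CG8300 and 394 bp between their starts on the X chromosome. The pair had 1 peak, 21 bp from the CG4617 start, with a signal of 289 at rank 1569 of the 5558. Replicates 1, 2 and 3 gave 118, 137 and 61.0, at ranks 1691, 938 and 1987. Whether the transgene adds copies of this stretch is not given in the labels, and its part in the signal was not tested.

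Gene families were then read by whether a family gene in a head-to-head pair had a summit within 500 bp of its own start. All genes in pairs gave 66.4%. In 14 of the 18 families with any gene in a pair the share was higher. Families are described by counts, and genes of the same family outside pairs are given beside them. A summit counted for a family gene can lie nearer the partner's start. That of GluProRS lay 245 bp from the GluProRS start of the pair and 15 bp from that of AP-1sigma.

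Genes of protein synthesis ranged from near the share of all genes in pairs to well above it. Of the cytoplasmic ribosomal protein genes 50 of 56 in pairs had one, beside 29 of 37 outside pairs, with the strongest at RpL7 (926), RpL34b (768) and RpS27 (766). For mitochondrial ribosomal proteins it was 47 of 59, beside 11 of 16, led by mRpS10, mRpL41 and mRpS23. Aminoacyl-tRNA synthetases, which charge tRNAs, had 22 of 24, beside 6 of 11, led by GluProRS (531), GlnRS (473) and SerRS (467). Translation factors had 19 of 28 (67.9%), near the 66.4% of all genes in pairs, beside 19 of 26 (73.1%) outside pairs, led by eIF4EHP (531), eIF3h (517) and eIF3a (508).

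Families of transcription and chromatin also had peaks in most of their pairs. Mediator and general transcription factors had 35 of 38 genes in pairs with a peak, beside 14 of 16 outside pairs, led by MED10 (998), MED6 (644) and MED7 (612). This family holds pairs of its own kind, Taf10b/Taf10 at 45 bp with a signal of 284, and MED20/Trf at 47 bp with 215. RNA polymerase subunits had 16 of 19, beside 9 of 11, led by Polr2H (789), Polr2B (521) and Polr2C (481). Polycomb and Trithorax genes had 18 of 20, beside 10 of 14, led by brm (721), Jarid2 (575) and E(z) (477). Insulator and architectural proteins had 9 of 11, beside 7 of 8, led by Chro (1333), Cp190 (700) and su(Hw) (426). Spliceosome genes had 27 of 31, beside 4 of 4, led by Prp3 (507), Sf3a1 (406) and Prp40 (402).

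Among energy, transport and turnover genes the counts in pairs and at lone promoters stood in either order. Oxidative phosphorylation genes had a peak in 38 of 43 in pairs (88.4%), beside 21 of 41 outside pairs (51.2%), led by ATPsynF (792), COX6B (450) and UQCR-C1 (421). Proteasome genes went the other way, with 17 of 22 beside 10 of 10, led by Rpt5 (556), Prosbeta1 (550) and Rpt2 (545). Rab GTPases, which direct vesicle traffic, had 13 of 16 beside 4 of 7, led by Rab2 (609), Rab14 (527) and Rab6 (511). DNA replication genes had 18 of 24 beside 5 of 12, led by Psf1 (471), RfC38 (469) and PolD2 (425). Nucleoporins had 12 of 20 beside 2 of 4, led by Nup37 (766), whose partner is RpS27, then Nup98-96 (519) and Nup50 (479). Chaperones had 10 of 18 beside 4 of 19, led by DnaJ-60 (380), Hsc70-5 (346) and CCT4 (331).

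Families used in particular tissues had few genes in pairs. None of the 28 segmentation and Hox genes is in a head-to-head pair, and 2 of the 28 had a peak. Of 25 muscle structural genes 4 are in pairs, and 3 of these had a peak, beside 1 of 21 outside pairs. The 3 were Msp300 (489), Tm1 (312) and flr (149). Of 121 cuticle protein genes 13 are in pairs and none had a peak, Ccp84Ad and Ccp84Ae among them, and none of the 108 others had one. Of 179 chemoreceptor genes 26 are in pairs and 4 had a peak, while none of the 153 others did; Gr32a and Gr58a are among those without. The 3 strongest were Ir60e (360), Gr63a (357) and Ir60b (207), with the partners CG13585, Lamtor4 and Letm1. At all 7 pairs with a peak that hold 1 chemoreceptor gene the strongest summit was nearer the partner's start than the receptor's. Over the 18 families, counting pairs that hold 1 family gene, the strongest summit was more often nearer the family gene in 10, more often nearer the partner in 7 and equally often in 1. Oxidative phosphorylation genes gave 27 pairs nearer the family gene and 12 nearer the partner, cytoplasmic ribosomal proteins 31 and 25, mitochondrial ribosomal proteins 22 and 27, aminoacyl-tRNA synthetases 9 and 12, and DNA replication genes 6 and 11.

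Short motifs were counted within 100 bp of the summit, companions left out, on either strand. The DRE was found at 11.1% of 1975 head-to-head summits (interval 9.78 to 12.5%), against 10.4% of 1136 summits at lone single-start promoters, 41 of 820 at lone promoters of genes with several starts (3.71 to 6.71%), 0.695% of 1007 away from promoters and 6.44% of windows of the same length around all 19275 protein-coding starts. Motif 1 was found at 10.8% (9.49 to 12.2%), against 13.7%, 7.80%, 0.497% and 5.68% of the same sets. CGATA, which every DRE contains, was found at 45.6%, against 42.8%, 34.0%, 20.6% and 37.1%. For motif 1 the head-to-head share thus lay between those of the lone classes. About 500 bp to the left or to the right of the head-to-head summits the DRE was at 1.52% and 1.62% of windows.

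Motif 7, searched as CATCNCT, was at 17.7% of head-to-head summits (16.1 to 19.5%), against 12.1% at lone single-start summits (10.4 to 14.2%) and 11.6% at lone promoters of genes with several starts. Replicates 1, 2 and 3 gave 15.7%, 15.5% and 18.5% at head-to-head summits, against 12.6%, 11.3% and 11.7% at lone ones, a mean difference of 4.70 ± 1.94 percentage points (SD, n = 3). Head-to-head shares were also higher in all 3 replicates for CGATA (by 2.48 ± 1.5 points), for the TATA box searched as TATAAA (by 2.06 ± 0.504) and for the DRE (by 0.711 ± 0.717). They were lower in all 3 for GAGAG (-1.87 ± 0.485 points), motif 1 (-1.75 ± 0.716) and motif 6 (-0.855 ± 0.659), and differed in sign between replicates for the E-box and motif 8. For the 7 motifs of 1 sign the exact two-sided sign-flip test gave p = 0.25, the smallest possible, and 9 motifs were compared. In the thresholded list the TATA box was at 493 of 1975 head-to-head summits (23.1 to 26.9%) against 249 of 1136 lone single-start ones (19.6 to 24.4%). It was at 24.0% of summits at lone promoters of genes with several starts. Away from promoters it was at 34.5% of summits, and around all protein-coding starts at 26.9% of windows. Head-to-head against lone single-start summits, GAGAG was at 15.6% against 18.7% and the E-box CAGCTG at 16.2% against 16.7%. Motif 8 (GGCAACG) was at 5.62% against 5.90% and motif 6 (GGTATTTT) at 4.81% against 5.46%.

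**Figure D5:**
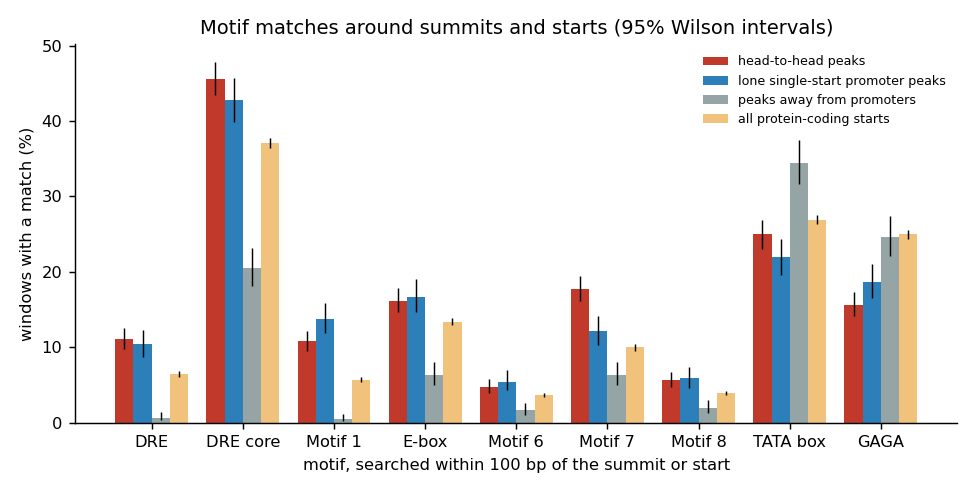
Share of windows with a motif match (vertical axis, percent, 95% Wilson intervals) within 100 bp of summits, companions left out, and of all protein-coding starts, for 9 motifs (horizontal axis); the DRE core is CGATA and GAGA is GAGAG. Head-to-head and lone single-start summits are close for the DRE (11.1% against 10.4%), and motif 7 is at 17.7% against 12.1%.

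A DRE or a motif 1 was more frequent at close pairs than at wide ones, as was every other motif counted except GAGAG. At members spaced under 300 bp, 26.6% of 999 had a DRE or a motif 1 near the summit (24.0 to 29.5%), against 15.5% of 976 spaced 300 bp or more (13.3 to 17.9%). Windows centred on the midpoint of a pair gave 16.3% at the 1927 pairs with a peak, against 5.73% of the 698 pairs without, histone pairs left out. The pairs without a peak are more widely spaced, so their midpoints lie farther from the starts. The part of spacing in this difference was not tested. Motifs were also searched in the stretch between the starts itself, histone pairs left out. All 9 motifs were compared in 3 spacing classes, for peaks of the thresholded list only. The intervals cover counting error over pairs, which can share a start, so whether they overlap is no test. CATCNCT was in 4.30% of 349 pairs with a peak (2.62 to 6.97%), against 1.64% of 61 without (0.29 to 8.72%), at spacings of 12 to 99 bp. At 100 to 199 bp it was in 12.6% of 238 (8.97 to 17.4%), against 5.26% of 76 (2.07 to 12.8%), and at 200 to 299 bp in 24.9% of 441 (21.1 to 29.2%), against 8.74% of 103 (4.67 to 15.8%). The intervals overlap in the closer classes and not in the widest. The DRE was in 15.2% against 13.1%, 16.0% against 6.58% and 17.9% against 9.71% in the same 3 classes, with overlapping intervals in each. TATAAA was in 2.87% against 9.84%, 14.7% against 23.7% and 49.2% against 49.5%, again with overlapping intervals. CGATA was in 47.3% against 34.4%, 59.2% against 32.9% and 61.0% against 43.7%. Its intervals overlap in the closest class only. They were 52.9 to 65.3% against 23.4 to 44.1% at 100 to 199 bp. At 200 to 299 bp they were 56.4 to 65.4% against 34.5 to 53.3%. GAGAG was lower at pairs with a peak at 200 to 299 bp, 16.1% (13.0 to 19.8%) against 29.1% (21.2 to 38.5%). Other intervals, of GAGAG in the closer classes and of the remaining motifs, overlapped. Such matches are letters in a window and do not show which factor was bound.

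Support by the replicates was about that of the list as a whole. The summit of 65.3% of members lay in one of the 5558 strongest regions of all 3 replicates, against 61.4% of all thresholded peaks. Over the whole replicate lists it was 85.2% of members and 87.5% of all peaks. Replicate 3 held 88.2% of members, and replicates 1 and 2 held 97.7% and 98.5%. The thresholded list was made from these lists, so this is a description and no independent check. The replicate summit lay a median of 20, 21 and 32 bp from the thresholded one in replicates 1, 2 and 3.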

How the data were processed

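Per the labels' listing text, the authors deposited, for each of 3 anti-GFP ChIP-seq libraries, a list of peaks and background regions made with 1 control alignment, a pooled list, and a thresholded list derived by irreproducible discovery rate (IDR). Not given in the sources used here: aligner, peak caller, IDR threshold and treatment of reads aligned to several places. Signal is a value the authors deposited per region, on an unstated scale, and was used within a list only. Reads per library are unknown. The dm6 lists were used (thresholded 5558, pooled 20051, replicates 30000, 17251 and 14368 regions). Coordinates are dm6, counted from 1.

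Starts came from Ensembl release 115 and sequence from RefSeq Release 6. A member's start pair was the narrowest of its gene pair with a start within 500 bp of the summit. Each replicate was represented by its 5558 strongest regions. Companions are the weaker of neighbouring summits at most 250 bp apart. Motifs were searched in windows of 201 bp. Differences between sets of peaks or pairs, taken within each replicate, used exact two-sided sign-flip tests over the 3 replicates, whose smallest p is 0.25. Shares have 95% Wilson intervals. The members, gene families, motifs and tests were chosen with earlier results of these data known. Named genes are those of the 20 highest signals, the 3 narrowest and 3 widest spacings in the top quartile, the 5 highest summed signals and the 3 strongest of each family, with the first 2 in symbol order of those without a peak where under 50% had one, and CG4617, the partners, a gene family's own pairs, and mod(mdg4) and the histone genes added after their values were seen. Python 3.11.15, numpy 2.4.6, pandas 2.3.3, scipy 1.17.1 and matplotlib 3.10.9 were used, and the pairing of summits and starts was tested on simulated data. Alternatives changed the window, starts, spacing, peaks and replicates used. The dm3 lists were left out.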

Additional observations from a re-analysis of the deposited data

How the results depend on the processing

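Of 50 alternatives, 37 stayed within the spread of the replicates (for counts within 1.5 times, for replicate support within its interval), and 13 moved further. Only the spacing difference (9 alternatives) and the log2 signal difference (8 alternatives) have a sign that could reverse, and neither did. The other results are shares or counts, which have no direction. The share of pairs with a peak, 72.3%, became 77.8% for spacings up to 500 bp, 48.3% with the stronger 2779 peaks and 54.4% with peaks held by the strongest regions of all 3 replicates, and leaving out a replicate gave 57.7% to 64.4%. These settings keep fewer peaks or fewer pairs. The spacing difference became -154 bp without histone pairs, and -108 to -88 bp when a replicate was left out. The share of summits between the starts became 57.9% for narrower regions without companions, and 38.8% to 46.1% when a replicate was left out. The log2 signal difference from lone single-start peaks, 0.03, became 0.12 as the mean of the differences within each replicate list at the same peaks, and 0.0342 to 0.107 when a replicate was left out. A DRE or motif 1 was at 20.1% of members, companions included, at 11.5% within 50 bp and 32.8% within 200 bp, since longer windows hold more matches. Support by all 3 replicate lists, 85.2%, became 76.8% where a replicate region had to cover 50% of the peak. The settings without companions and without histone pairs, and the joining of pairs into loci, were chosen after seeing the data.

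No paired analysis was possible because the 3 replicates form 1 group, so no groups can be matched. The sign-flip tests set peaks or pairs against others within each replicate. With no control sample analysed, values cannot be set against a background measured the same way, and with unknown depth no lower limit of detection can be given.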

Other observations

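Of the 740 pairs without a peak, 319 had a region of the pooled list within 500 bp of a start, with a best signal between 63.2 and 110 (quartiles), below the lowest signal of the thresholded list, 129. At the other 421, which include the 42 histone pairs, no pooled region was listed. By arm, the share of pairs with a peak was 78.5% of 683 on 3R, 73.6% of 518 on 3L, 70.9% of 543 on 2R, 69.2% of 403 on X and 66.4% of 509 on 2L, or 72.4% there without the 42 histone pairs. On the small chromosome 4, 8 of 11 pairs had one. In replicates 1, 2 and 3 the share on 3R was 79.6%, 77.9% and 75.5%, above that of every other large arm in each. The 3R pairs include the 37 of mod(mdg4), which all count as having a peak through 3 peaks. The stretch between the starts held a median of 34.5% G and C at 1783 pairs with a peak and 36.9% at 669 pairs without, for spacings of 50 bp or more and without histone pairs.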
